A study of Mus musculus with 24 samples.

Results

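MERVL-KD embryos of the 8-cell stage were compared with those of the 4-cell stage, for every gene and repeat family in the count tables. The comparison took 4 of the 24 samples of the series, namely 2 total RNA libraries at each stage, and 4 control libraries of the same stages were set beside them. Zygotes of B6D2F1 (BDF1) parents, given as background strain BDF2 in the sample labels, received antisense oligonucleotides (ASOs) by injection into the male pronucleus. The MERVL-KD group received 3 mixed ASOs against the retrotransposon MERVL and the control group a scrambled ASO, so injection and culture in KSOM medium were common to both groups. Each library was made from 30 embryos without zona pellucida, so each value is a pool over embryos and blastomeres, and fewer cells of a type cannot be told apart from less RNA per cell. The labels give 2.5 days post-coitum for both stages, and the stage of the embryos was judged by eye according to the methods. The tables held 55291 genes and 1035 repeat families.

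Between these stages the mouse embryo passes a further round of cleavage. Transcripts inherited from the oocyte continue to be lost, the burst of transcription that opened at the 2-cell stage has ended, and synthesis of ribosomes and metabolic enzymes rises. The first decision between the inner cell mass, marked by transcription factors such as POU5F1, SOX2 and NANOG, and the outer trophectoderm, marked by CDX2, GATA3 and keratins, is prepared around and after compaction of the 8-cell embryo. MERVL is an endogenous retrovirus of the ERVL class. Its internal part (MERVL-int) is flanked by long terminal repeats (LTRs) named MT2_Mm, which act as promoters of many transcripts of the 2-cell embryo.

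The oligonucleotides are shown because the comparison of interest exists only through them. They are gapmers of 20 nucleotides, in which the bases in capitals (positions 6 to 14 from the 5′ end) carry no 2′-O-methoxyethyl group. This central stretch of DNA allows RNase H to cut the paired RNA.
MERVL-ASO1: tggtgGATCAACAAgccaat
MERVL-ASO2: catttGTCTGTTTAccacga
MERVL-ASO3: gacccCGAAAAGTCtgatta
Scramble-ASO: agcgcGGGTATTGAaccagg
In the mm10 genome MERVL-ASO1 had 702 sites with a full match and MERVL-ASO3 had 630. MERVL-ASO2 had no full match but 322 sites with 1 mismatch. The scrambled oligonucleotide had no site with fewer than 2 mismatches, and 1 site with 2.

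Depth was similar in all 8 libraries, between 28167085 and 41482526 counts, of which 19.8% to 22.4% fell on repeats. Levels are given as CPM (counts scaled to a common library total), adjusted by the trimmed mean of M values (TMM). MERVL-int stood at 491 and 316 CPM in the MERVL-KD 4-cell libraries and at 273 and 289 CPM in the MERVL-KD 8-cell libraries. In control embryos it stood at 20136 and 17256 CPM at the 4-cell stage and at 11822 and 11753 CPM at the 8-cell stage. The knockdown was thus seen at both stages, with no overlap between the groups. Markers of the preimplantation embryo were present in every library, with Pou5f1 between 107 and 147 CPM in the MERVL-KD embryos. Of 39 markers of cumulus and granulosa cells, blood, stroma and oviduct, 5 reached 5 CPM in a MERVL-KD library, and Hbb-bs, Hsd3b1 and Lum were at 0 in all 4.

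Between the 4-cell and the 8-cell pools of MERVL-KD embryos decreases outnumbered increases. Of 19505 genes tested, 41 rose (0.21%) and 132 fell (0.677%) at least 2-fold at an adjusted p under 0.05 (quasi-likelihood test of edgeR, adjusted after Benjamini and Hochberg, n = 2 against 2). Without the fold threshold 172 genes were higher (0.882%) and 186 lower (0.954%), and the median log2 fold change of all genes was -0.02. In control embryos the same test called 129 of 18603 genes higher (0.693%) and 194 lower (1.04%), and without the fold threshold 1217 higher (6.54%) and 699 lower (3.76%). With a library left out the MERVL-KD calls were 55 to 155 higher and 251 to 400 lower. Increases made up 23.7% of the calls in MERVL-KD and 39.9% in control embryos, the latter 52.8% (261 higher, 233 lower) without replicate 1 of the control 4-cell stage. This split depended on scaling, because scaling by library size alone gave MERVL-KD calls of 21 higher and 218 lower and moved the median of all genes from -0.02 to -0.14, and control calls of 67 higher and 400 lower. In MERVL-KD embryos DESeq2 called 78 higher and 225 lower. The difference between the 2 changes, tested as an interaction over the 8 libraries, passed for 22 of 21271 genes in the direction of MERVL-KD (0.103%) and for 58 in the opposite direction (0.273%), and without the fold threshold for 57 (0.268%) and 78 (0.367%).

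**Figure D1:**
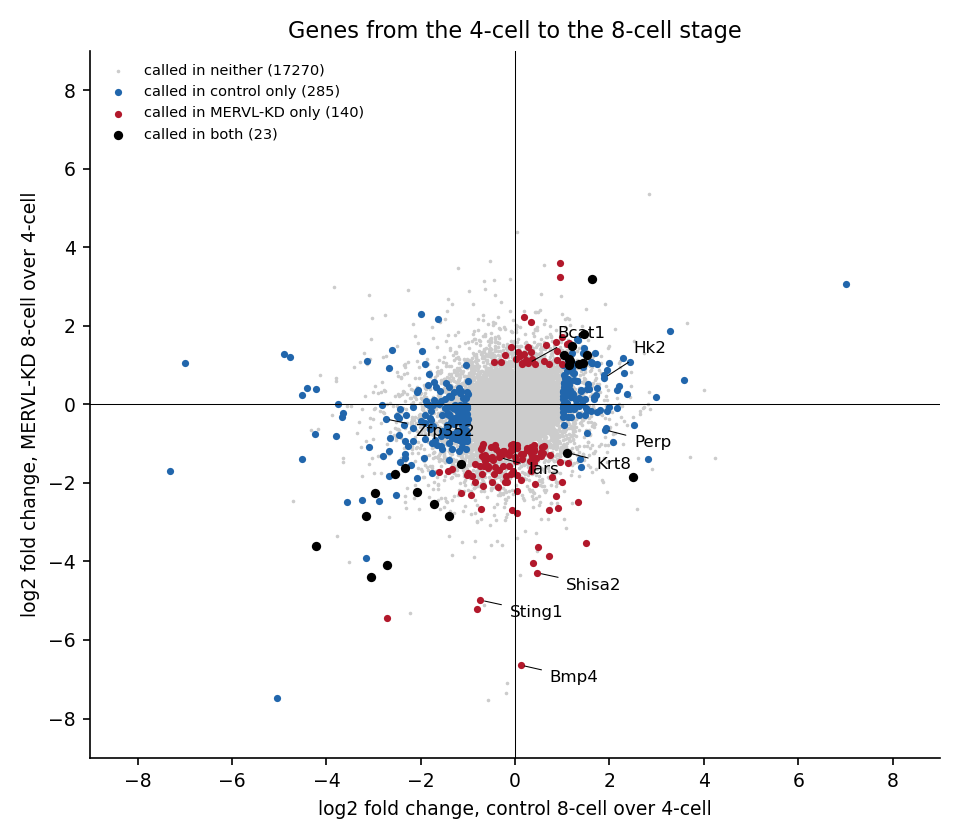
Each point is a gene tested in both groups, with its log2 fold change from the 4-cell to the 8-cell stage in control embryos on the horizontal axis and in MERVL-KD embryos on the vertical axis. Called in both groups were 23 genes (10 higher in both, 11 lower in both, 2 in opposite directions), only in control 285 and only in MERVL-KD 140. Of the genes that rose in MERVL-KD embryos 24.4% were called higher in control embryos, where 0.693% of all genes were. Of those that fell 8.33% were called lower in control embryos, where 1.04% of all genes were.

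The changes of the 2 groups were looked up in one another, since they share no library. All 41 genes that rose in MERVL-KD embryos were tested in control embryos, where 10 of them rose as well and 37 had a log2 fold change above 0, with a median of 0.65 against 1.25 in MERVL-KD embryos. Of the 132 genes that fell in MERVL-KD embryos, 122 were tested in control embryos, where 11 fell, 2 rose and 50 lay above 0, with a median of -0.16 against -1.61. In the other direction, 10 of the 127 control-higher genes tested in MERVL-KD embryos rose there and 2 fell, with a median of 0.35 against 1.32. Of 181 control-lower genes tested, 11 fell in MERVL-KD embryos, with a median of -0.42 against -1.57. A call missed in one group does not show that the groups differ, and the difference itself is given where it was tested.

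Of the genes that fell 117 of 132 were protein-coding (88.6%), of those that rose 24 of 41 (58.5%), and of all tested genes 72.9%. The median level of the genes that fell went from 9.29 to 2.93 CPM, and that of the genes that rose from 8.64 to 19.8 CPM. Of the 41 that rose, 8 were histone genes, of which 53 were among the 19505 tested, a group looked at after its values were seen.

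Among the increases were enzymes, translation factors and a subunit of the anaphase-promoting complex, several of which started from 4-cell levels below those of control embryos. Bcat1, the cytosolic branched-chain amino acid transaminase, stood at 273 and 264 CPM in the 4-cell libraries and at 533 and 569.9 CPM in the 8-cell libraries, a log2 fold change of 1.04 (SE 0.10, edgeR adjusted p = 0.00213). Control embryos held Bcat1 at 529 and 532 CPM and then at 631 and 647 CPM. The MERVL-KD libraries lay below all control libraries at the 4-cell stage and between the stages of control embryos at the 8-cell stage. Gspt1, the translation termination factor eRF3a, went from 63.4 and 54.8 CPM to 117 and 121 CPM, a log2 fold change of 1.01 (SE 0.12, edgeR adjusted p = 0.00559). Its control libraries stood between 201 and 238 CPM and overlapped with neither stage of MERVL-KD embryos. Anapc10, a subunit of the anaphase-promoting complex, was measured at 23.4 and 18.5 CPM and then at 48.2 and 53.8 CPM. Its log2 fold change was 1.29 (SE 0.16, edgeR adjusted p = 0.00559), and that of control embryos, which held 98.7 to 120.2 CPM, was 0.19.

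Bzw2, an eIF5-mimic regulator of translation initiation, rose from 23.1 and 18.3 CPM to 48.1 and 49.4 CPM, a log2 fold change of 1.24 (SE 0.16, edgeR adjusted p = 0.00603), while control libraries lay between 125 and 147 CPM at both stages. Pcyt2, an enzyme of phosphatidylethanolamine synthesis, and Smim13, a small membrane protein, had log2 fold changes of 1.10 (SE 0.16) and 1.15 (SE 0.16). Zfp970, a zinc finger gene, rose from 5.14 and 4.51 CPM to 12.4 and 16.7 CPM (log2 fold change 1.60, SE 0.24) and in control embryos by 0.87.

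**Figure D2:**
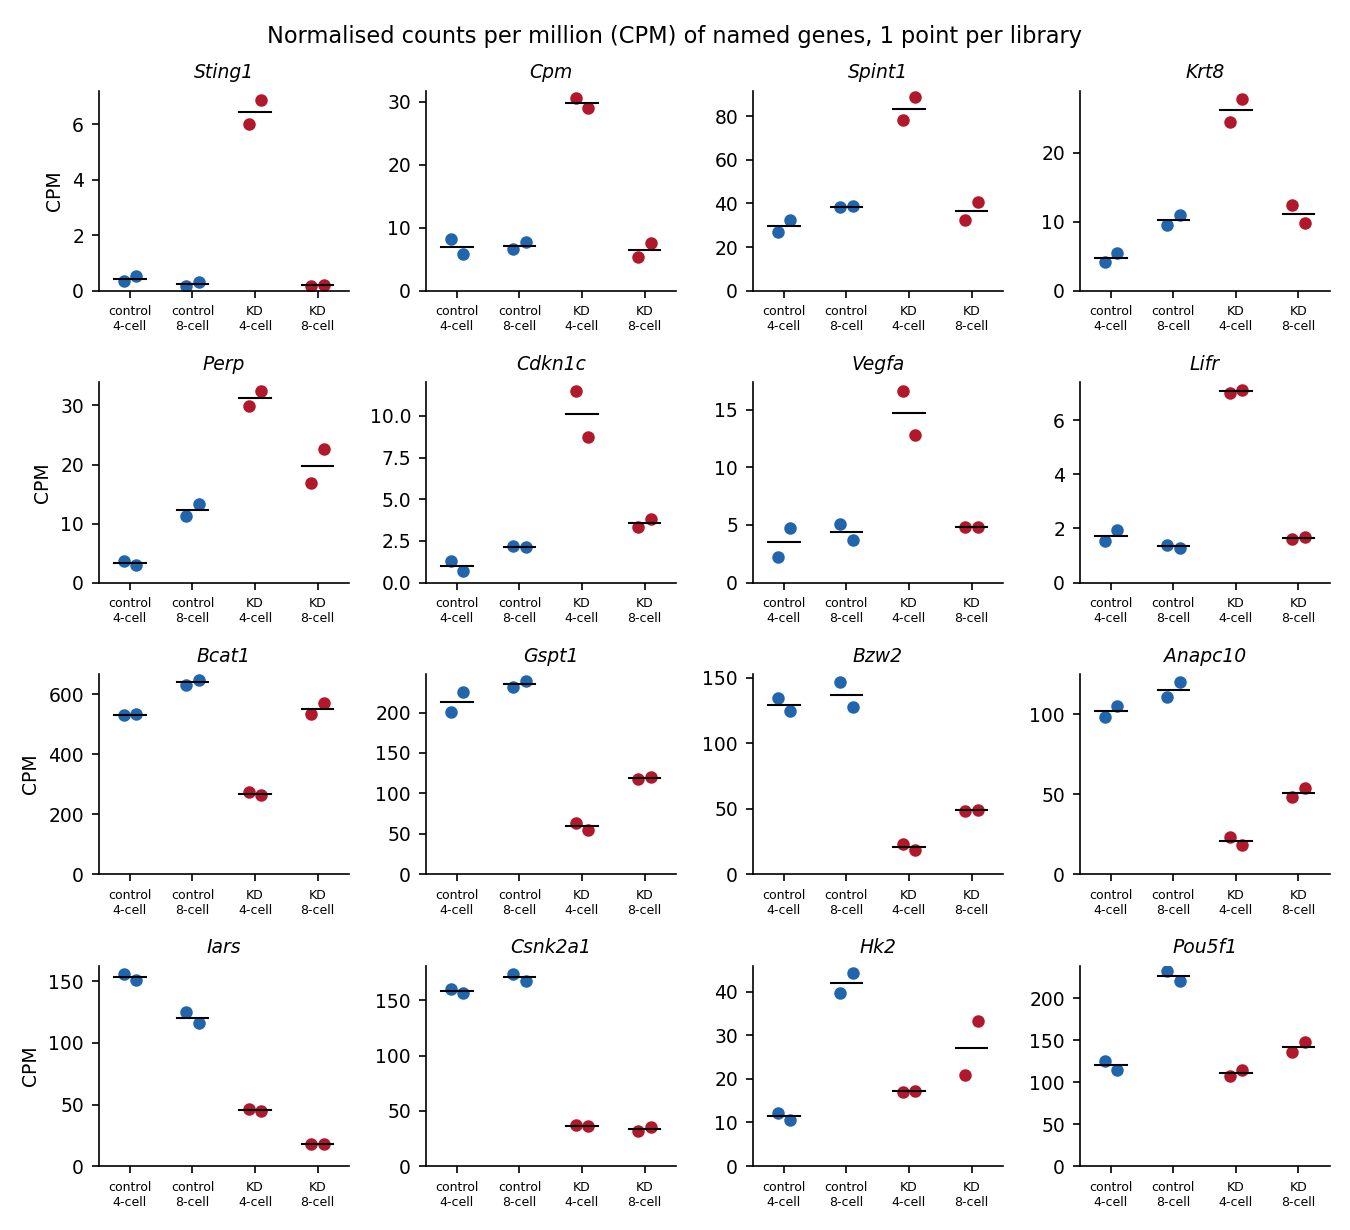
Level in CPM of 16 named genes in each of the 4 groups (control and MERVL-KD at the 4-cell and the 8-cell stage), with a point for each library, a bar at the mean of the 2 libraries and each axis starting at 0. Gspt1, Anapc10, Bzw2, Iars and Csnk2a1 lie below control at both stages in MERVL-KD embryos, and Sting1, Cpm, Spint1, Vegfa and Lifr lie above control at the 4-cell stage and within or near the control range at the 8-cell stage.

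Of the 8 genes named among the decreases by their p, 6 stood above control embryos at the 4-cell stage and near them at the 8-cell stage. No test between the groups within a stage was made here, and the stage comparison uses the same 4-cell libraries, so these levels are given side by side. Sting1, the adaptor of cytosolic DNA sensing, stood at 6.01 and 6.89 CPM in MERVL-KD 4-cell libraries and at 0.171 and 0.226 CPM in 8-cell libraries, with control libraries between 0.175 and 0.516 CPM. Its log2 fold change of -4.99 (SE 0.41, edgeR adjusted p = 0.000888) had the smallest p among the named genes that fell. Of the 8 libraries, the MERVL-KD libraries of the 4-cell stage alone were above 1 CPM. Shisa2, which retains Wnt and FGF receptors in the endoplasmic reticulum, followed the same course, from 6.94 and 4.80 CPM to 0.399 and 0.201 CPM (log2 fold change -4.29, SE 0.45).

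Carboxypeptidase M, encoded by Cpm, went from 30.5 and 29.0 to 5.32 and 7.54 in these units, and control libraries held 5.78 to 8.21. The log2 fold change of Cpm was -2.20 (SE 0.21, edgeR adjusted p = 0.00213). Ahnak, a giant scaffold protein of the membrane skeleton, fell from 126 and 158 CPM to 61.6 and 57.6 CPM (log2 fold change -1.25, SE 0.13; adjusted p = 0.0706 in a fit of 12 libraries), and the cytolinker plectin, Plec, from 82.3 and 86.9 CPM to 39.7 and 42.6 CPM (-1.03, SE 0.12). Spint1, a membrane inhibitor of serine proteases needed in the placenta, fell from 78.0 and 88.6 CPM to 32.2 and 40.5 CPM (-1.19, SE 0.15).

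Nat8f2, of an N-acetyltransferase family, showed the opposite position relative to control. It fell from 6.70 and 7.32 CPM to 1.20 and 0.752 CPM in MERVL-KD embryos (log2 fold change -2.85, SE 0.34) and from 23.1 and 27.8 CPM to 7.86 and 11.1 CPM in control embryos (-1.41, SE 0.19). Both falls passed the test, and the difference between them did not (-1.43, SE 0.35, edgeR adjusted p = 0.0709). Nat8f2 was among the 21 genes called in the same direction in both groups, to which Zfp280c, Asb12, Dab2 and the histone genes H2ac8, H2ac13, H2bc6 and H2bc7 also belonged.

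Genes for which the change itself differed between MERVL-KD and control embryos came in several forms. Krt8, a keratin of the trophectoderm, fell from 24.5 and 27.8 CPM to 12.5 and 9.80 CPM in MERVL-KD embryos, a log2 fold change of -1.23 (SE 0.19, edgeR adjusted p = 0.0127). In control embryos Krt8 rose from 4.16 and 5.47 CPM to 9.58 and 10.9 CPM, a log2 fold change of 1.10 (SE 0.23, edgeR adjusted p = 0.00971). The groups thus overlapped at the 8-cell stage, and the changes differed by -2.32 (SE 0.29, edgeR adjusted p = 0.00199). Msx1, a homeobox gene, was the other gene that fell in MERVL-KD and rose in control embryos, by -1.86 and 2.50 on the log2 scale. Perp, a desmosomal protein and p53 target, had the smallest p of the difference (-2.55, SE 0.28, edgeR adjusted p = 0.000922). It stood at 3.71 and 2.89 CPM and then at 11.2 and 13.4 CPM in control embryos, against 30.0 and 32.5 CPM and then 16.9 and 22.7 CPM in MERVL-KD embryos, where its change of -0.65 did not pass on its own (edgeR adjusted p = 0.0899). Perp in MERVL-KD embryos remained above control libraries at both stages.

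In the direction of MERVL-KD, Parp8, a mono-ADP-ribosyltransferase, differed because it fell in control embryos alone. It stood at 154 and 175 CPM and then at 89.5 and 58.3 CPM in control, and at 22.9 and 21.1 CPM and then at 28.1 and 27.7 CPM in MERVL-KD embryos (difference 1.50, SE 0.23, edgeR adjusted p = 0.01). The call of Parp8 was lost without replicate 2 of the MERVL-KD 4-cell stage (adjusted p = 0.0537) or replicate 1 of the 8-cell stage (adjusted p = 0.0522). Socs7, of the suppressors of cytokine signalling, rose in MERVL-KD embryos by 0.66 and fell in control embryos by 0.36 on the log2 scale (difference 1.02, SE 0.15). The HMG-box factors Hbp1 and Bbx rose by 1.34 (SE 0.21) and 0.98 (SE 0.14) in MERVL-KD embryos, next to 0.07 and -0.11 in control embryos. Hbp1 went from 6.78 and 6.19 CPM to 18.0 and 14.8 CPM, and its 4 control libraries held 40.7 to 46.6 CPM. For all 4 genes MERVL-KD levels lay below control levels at both stages.

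Targets of the tumour suppressor p53 were a theme of the study on these same embryos, and the list of 40 was chosen with that known, so its direction is not independent evidence. In MERVL-KD embryos 32 of the 39 targets tested had a log2 fold change below 0, 3 fell at least 2-fold (0.677% of all genes did) and 10 were lower at the adjusted p alone (0.954% of all genes). None was higher at the adjusted p in edgeR or DESeq2, and 0 were higher at an unadjusted p under 0.05. The median was -0.41, against -0.02 for all genes and 0.01 for the same list in control embryos. Cdkn1a, the p21 inhibitor of cyclin-dependent kinases, stood at 102 and 109 CPM in 4-cell libraries and at 70.7 and 61.0 CPM in 8-cell libraries, a log2 fold change of -0.68 (SE 0.12, edgeR adjusted p = 0.0234). It remained above the control libraries, which held 35.8 to 53.2 CPM. Ccng1, cyclin G1, went from 236 and 217 CPM to 112 and 126 CPM (log2 fold change -0.92) and lay between 21.1 and 35.4 CPM in control embryos, so it too lay above the control range at both stages.

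The targets called at 2-fold were Phlda3, a repressor of AKT, Gadd45b, a stress sensor, and Btg2, an antiproliferative adaptor of deadenylation. Phlda3 fell from 18.8 and 16.8 CPM to 6.81 and 8.05 CPM (log2 fold change -1.26, SE 0.20, edgeR adjusted p = 0.0163) and Gadd45b from 16.2 and 18.0 CPM to 7.46 and 8.52 CPM (-1.09, SE 0.20, edgeR adjusted p = 0.0248). In a fit of all 12 RNA libraries Phlda3 did not pass (adjusted p = 0.0683). Btg2 was the least certain, at 19.9 and 33.7 CPM and then 13.6 and 9.12 CPM (log2 fold change -1.24, SE 0.27, edgeR adjusted p = 0.0482), and it passed neither in a fit over all 8 libraries (adjusted p = 0.301) nor without replicate 2 of the 4-cell stage (adjusted p = 0.0826). The kinase Plk2 (-0.99), the spindle-associated Gtse1 (-0.97), the apoptosis gene Bbc3 (-0.89), Trp53inp1 (-0.68) and Sesn2 (-0.64) were lower at the adjusted p alone. The gene for p53 itself, Trp53, stood at 15.1 and 16.1 CPM and then at 20.4 and 12.9 CPM, with overlapping stages, and Mdm2, which targets p53 for degradation, at 177 and 178 CPM and then at 145 and 149 CPM (-0.26, SE 0.10, edgeR adjusted p = 0.217). Between the groups, the change of Gtse1 (-1.05, edgeR adjusted p = 0.0135), Cdkn1a (-0.98, 0.0213), Zmat3, Tnfrsf10b and Perp differed at an adjusted p under 0.05.

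**Figure D3:**
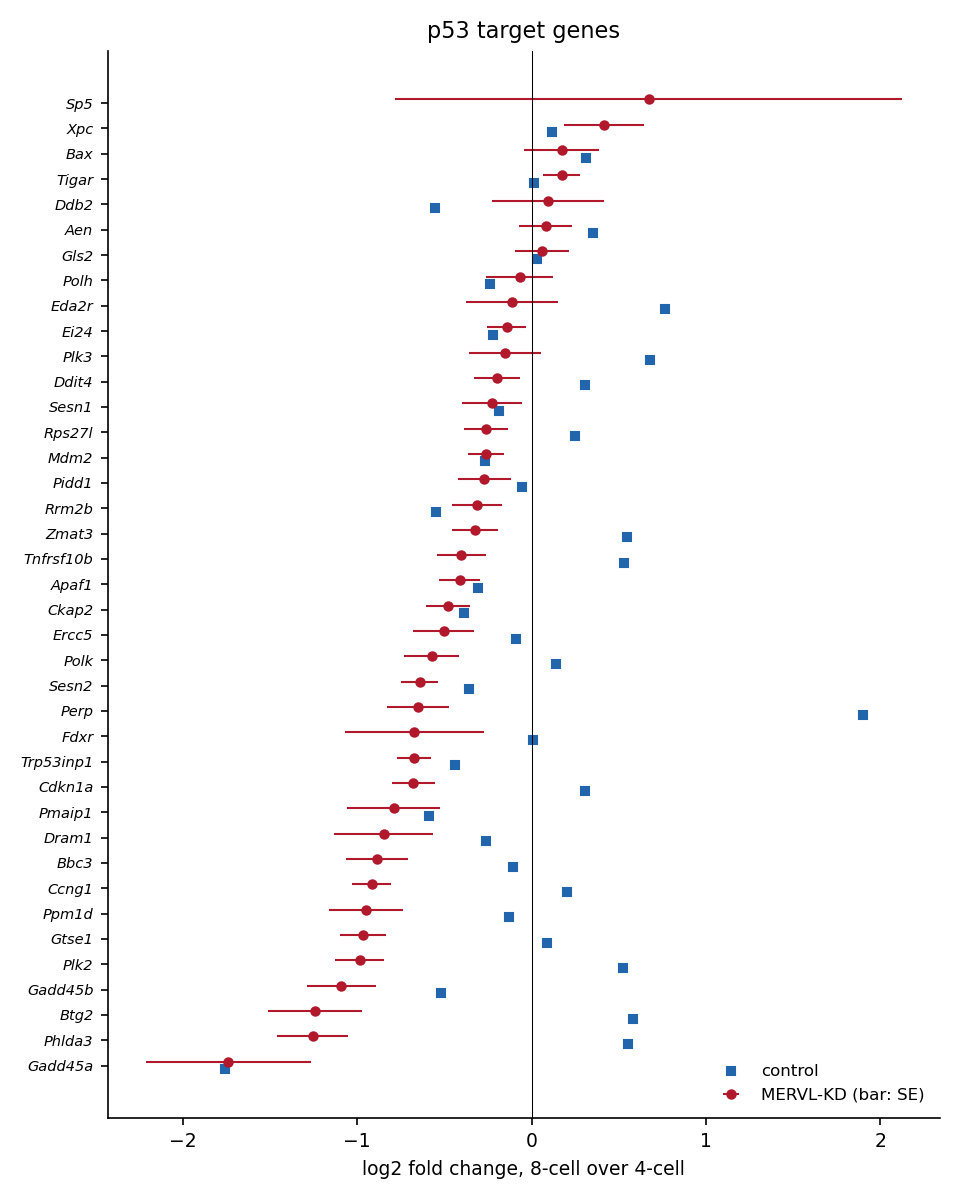
Log2 fold change from the 4-cell to the 8-cell stage of the tested p53 targets, with red circles and bars of 1 SE for MERVL-KD embryos and blue squares for control embryos. In MERVL-KD embryos 32 of 39 points lie to the left of 0, and the control points centre on 0.01.

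Signalling genes mostly lay below 0 too, though the summed level of the list overlapped between the stages. It stood at 2341 and 2173 CPM and then at 2264 and 2394 CPM in MERVL-KD embryos. Of 41 tested ligands, receptors and responders, 34 lay below 0 in MERVL-KD embryos, with a median of -0.46 against -0.02 for all genes and 0.08 for the list in control embryos, and 3 fell (0.677% of all genes did). Among the ligands, Bmp4 held 52 and 160 counts in the 4-cell libraries and 2 and 0 in the 8-cell libraries, a ratio of 112 with an exact 95% interval of 30.6 to 929 that covers counting error only, and read pairs may enter the counts more than once. Vegfa, the endothelial growth factor, went from 16.7 and 12.8 CPM to 4.78 and 4.81 CPM (log2 fold change -1.61, SE 0.23, edgeR adjusted p = 0.00963), with control libraries between 2.25 and 5.12 CPM. The cytokine Lif was lower at the adjusted p alone (-0.97, SE 0.20, edgeR adjusted p = 0.0405). Among the receptors, Lifr, through which LIF acts, fell from 7.02 and 7.12 CPM to 1.59 and 1.68 CPM (-2.10, SE 0.29, edgeR adjusted p = 0.0093), into the range of control libraries of 1.28 to 1.93 CPM. For Bmp4, Vegfa and Lif the difference from control passed the test as well, and for Lifr it did not (-1.74, SE 0.47, edgeR adjusted p = 0.106). These differences were lost when any of 5 libraries was left out for Vegfa (adjusted p up to 0.155), any of 6 for Lif (up to 0.0889), and either of 2 for Bmp4, replicate 1 of control 8-cell (0.0522) and replicate 2 of MERVL-KD 4-cell (0.0922).

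Genes of pluripotency had a median change near 0 in MERVL-KD embryos and above 0 in control embryos. None of the 37 tested passed the adjusted p in MERVL-KD embryos (edgeR), although 8 higher and 8 lower had an unadjusted p under 0.05 and DESeq2 gave 2 higher and 4 lower at an adjusted p under 0.05. Their median log2 fold change was 0.04, against 0.42 in control embryos, and the median difference was -0.33, against -0.01 for all genes. Under scaling by library size alone the median in MERVL-KD embryos was -0.09 and that of the difference -0.27, and with a library left out the median difference lay between -0.37 and -0.16. Pou5f1 stood at 107 and 115 CPM and then at 135 and 147 CPM in MERVL-KD embryos (log2 fold change 0.35, SE 0.11, edgeR adjusted p = 0.132). In control embryos it rose from 125 and 115 CPM to 232 and 220.2 CPM (0.93, SE 0.08). The 4-cell libraries of the groups overlapped and the 8-cell libraries did not, and the difference of -0.57 (SE 0.13) missed the threshold (edgeR adjusted p = 0.0576). Gata6, a factor of the primitive endoderm, showed a difference that passed (-0.87, edgeR adjusted p = 0.00712), with 143 and 126 CPM and then 154 and 174 CPM in MERVL-KD against 94.2 and 96.5 CPM and then 209 and 217 CPM in control embryos. Nanog, from 33.6 and 23.7 CPM to 29.0 and 24.9 CPM, overlapped between stages. Sox2 was at or under 1.58 CPM in every MERVL-KD library, and no change was detectable at this depth.

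Among 46 tested genes of the trophectoderm and the Hippo pathway 1 rose and 2 fell (0.21% and 0.677% of all genes did), with a median of -0.03 that lay between -0.10 and 0.14 when a library was left out. Tead4, the transcription factor at the end of the Hippo pathway, was at 125 and 159 CPM and then at 219 and 252 CPM in MERVL-KD embryos (log2 fold change 0.74, SE 0.13, edgeR adjusted p = 0.0234), and at 221 and 197 CPM and then at 273 and 231 CPM in control embryos. The MERVL-KD libraries of the 4-cell stage lay below all control libraries, and those of the 8-cell stage within their range. Stk4, a kinase of the same pathway, was also higher (0.69). The member that rose at 2-fold was Ddah1, an enzyme that degrades dimethylarginine, from 11.1 and 11.5 CPM to 22.3 and 34.8 CPM (1.34, SE 0.22). Those that fell were Krt8 and Id2, an inhibitor of bHLH factors (-1.73, SE 0.35, edgeR adjusted p = 0.0384), whose call was lost without replicate 2 of the 4-cell stage (adjusted p = 0.0681) or of the 8-cell stage (adjusted p = 0.0569). Cdx2 did not exceed 0.93 CPM in MERVL-KD embryos, and in the control 8-cell libraries it reached 1.89 and 2.29 CPM. Gata3 stood at 2.79 and 5.64 CPM and then at 4.53 and 6.17 CPM, with overlapping stages, and Tfap2c at 132 and 129 CPM and then at 144 and 144 CPM (0.15, edgeR adjusted p = 0.512).

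Of 52 tested genes of compaction and polarity, 2 passed the adjusted p in MERVL-KD embryos, and the median of -0.02 equalled that of all genes. Epcam, an epithelial adhesion molecule, fell from 82.0 and 109.7 CPM to 47.8 and 41.5 CPM (log2 fold change -1.10, SE 0.16, edgeR adjusted p = 0.00963) and in control embryos from 42.3 and 44.9 CPM to 25.2 and 27.6 CPM (-0.71, SE 0.12), with no significant difference between the falls. Jup, plakoglobin, was lower by -0.88 (SE 0.15) in MERVL-KD embryos alone and differed from control by -1.15 (SE 0.25, edgeR adjusted p = 0.0377), a call lost without replicate 2 of the MERVL-KD 4-cell stage (adjusted p = 0.0908), either control 4-cell library (0.0768 and 0.0882) or replicate 2 of control 8-cell (0.173). The tight junction gene Cldn4 stayed between 63.8 and 69.4 CPM in the 4 MERVL-KD libraries and rose in control embryos from 48.2 and 39.5 CPM to 74.9 and 84.5 CPM. Its difference of -0.83 passed (edgeR adjusted p = 0.034). E-cadherin, Cdh1, held 163 to 198 CPM in MERVL-KD embryos at a log2 fold change of -0.02 (SE 0.12) and rose by 0.54 (SE 0.08) in control embryos, a difference of -0.55 that missed the threshold (edgeR adjusted p = 0.0836). Among 32 tested genes of ion and amino acid transport that precede blastocoel formation, the amino acid transporter Slc7a7 rose from 1.50 and 1.50 CPM to 4.84 and 4.01 CPM (1.56, SE 0.34, edgeR adjusted p = 0.0448), a call lost without replicate 1 of the 8-cell stage (adjusted p = 0.0751).

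Most genes of the 2-cell list lay below 0 in both groups, while the summed level of the list rose in both. It went from 2229 and 2201 CPM to 2656 and 2783 CPM in MERVL-KD embryos and from 3018 and 3214 CPM to 3489 and 3628 CPM in control embryos. At the adjusted p 2 members were higher and 2 lower in MERVL-KD embryos (edgeR), where 0.882% and 0.954% of all genes were. The median over 46 tested genes of the list was -0.57 in MERVL-KD and -0.72 in control embryos, and the median difference was 0.02. The MERVL-KD median lay between -0.74 and -0.19 when a library was left out, and that of the difference between -0.13 and 0.22. In MERVL-KD embryos 36 of the 46 lay below 0, and edgeR called Usp17lb and Gm5662 lower (0.677% of all genes were), where DESeq2 called 4. Usp17lb is one of a family of near-identical deubiquitinase genes, and reads that match several copies are missing from the counts. It went from 8.64 and 10.5 CPM to 2.96 and 2.86 CPM (-1.71, SE 0.26, edgeR adjusted p = 0.0113), but did not pass in a fit of all 12 RNA libraries (adjusted p = 0.229) or of 8 (adjusted p = 0.216). Gm5662, a predicted gene, fell by -1.76 (SE 0.32, edgeR adjusted p = 0.0247). Zfp352, a zinc finger gene of the 2-cell embryo, was at 6.94 and 4.19 CPM and then at 1.54 and 6.97 CPM, so the 8-cell libraries disagreed, and its sign rests on them: without the second the log2 fold change was -1.84. In control embryos it fell from 10.2 and 12.7 CPM to 1.68 and 1.70 CPM. Duxf3, the activator of the 2-cell programme, and Zscan4c were near 1 CPM or below in the 8-cell libraries and did not pass. Sp110, a nuclear body gene on the list, was higher at the adjusted p alone (0.60, edgeR adjusted p = 0.0222), with 658 and 719.8 CPM and then 975 and 1112 CPM.

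Oocyte and maternal-effect genes also lay below 0 for the most part, while the summed level of the list did not fall. It went from 2647 and 2799 CPM to 2760 and 2795 CPM in MERVL-KD embryos. In control embryos it went from 3242 and 3243 CPM to 3376 and 3505 CPM. In MERVL-KD embryos 49 of 56 tested had a negative log2 fold change, with a median of -0.30, and in control embryos the median was -0.19. No member was called in MERVL-KD embryos by edgeR or by DESeq2, and 17 lower and 1 higher had an unadjusted p under 0.05. At the adjusted p 3 were higher and 8 lower in control embryos (edgeR), where 6.54% and 3.76% of all genes were.

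Genes for protein synthesis and respiration lay slightly above 0 as a body in both groups. All 79 ribosomal protein genes had a log2 fold change above 0 in MERVL-KD embryos, with a median of 0.31, of which 3 (Rpl7, Rpl19 and Rpsa) passed the adjusted p and 60 had an unadjusted p under 0.05. In control embryos their median was 0.50 and 76 passed. DESeq2 passed 26 in MERVL-KD and 76 in control embryos. The difference had a median of -0.20, and only 5 of the 79 lay above 0. No member passed the adjusted p for the difference in edgeR, and 2 were lower by DESeq2. Rpsa, of the small subunit, stood at 615 and 628 CPM and then at 854 and 896 CPM (log2 fold change 0.50, SE 0.10, edgeR adjusted p = 0.0302). Of 78 nuclear genes of oxidative phosphorylation 72 lay above 0 (median 0.22, control 0.34), with Cox6c passing (0.64), and of 76 genes of ribosome biogenesis 59 (median 0.15, control 0.13), with Nhp2, a protein of box H/ACA particles, passing (0.50). Scaling by library size alone lowered these medians to 0.18, 0.10 and 0.02. Transcripts of the mitochondrial genome were at 0 in every library and could not be compared.

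Metabolic and stress genes were mixed. Hk2, hexokinase 2, stood at 17.1 and 17.1 CPM and then at 21.0 and 33.2 CPM in MERVL-KD embryos (0.67, SE 0.21, edgeR adjusted p = 0.136) and rose from 12.2 and 10.6 CPM to 39.7 and 44.2 CPM in control embryos (1.89, SE 0.14). The 2 MERVL-KD 8-cell libraries thus lay below both control libraries of that stage, and the difference was -1.22 (SE 0.26, edgeR adjusted p = 0.0408), a call lost when any of 6 libraries was left out (adjusted p between 0.0535 and 0.126). The mitochondrial isocitrate dehydrogenase Idh2 was higher in both groups (0.78 and 0.60). Of 21 heat shock genes and chaperones, Hspa8 was higher (0.54) and Hspa5, the chaperone of the endoplasmic reticulum, lower (-0.83), each also in control embryos (0.82 and -0.59). Hsf2 rose in control embryos from 43.4 and 35.1 CPM to 81.2 and 72.6 CPM and stood between 46.1 and 53.7 CPM in all MERVL-KD libraries (difference -0.89, edgeR adjusted p = 0.034).

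Cell cycle genes had a median of -0.05 over 50 tested, with 1 call in MERVL-KD embryos. This was Cdkn1c, the p57 inhibitor of cyclin-dependent kinases, at 11.5 and 8.74 CPM and then at 3.33 and 3.83 CPM (-1.49, SE 0.26, edgeR adjusted p = 0.0197), next to 1.29 and 0.689 CPM and then 2.18 and 2.13 CPM in control embryos. Cyclin D2, Ccnd2, stood at 5.22 and 4.69 CPM and then at 2.48 and 2.26 CPM, which did not pass in MERVL-KD embryos (edgeR adjusted p = 0.0999), although the difference of -2.42 did (edgeR adjusted p = 0.034). The S-phase cyclin Ccne2 was lower (-0.97, edgeR adjusted p = 0.0437) with a difference of -1.32. The differences of Ccnd2 and Ccne2 were lost when any of 8 and any of 5 libraries were left out (adjusted p up to 0.0933 and 0.0844). The kinetochore motor Cenpe went the other way, from 475 and 545 CPM to 773 and 801 CPM in MERVL-KD embryos (0.63, edgeR adjusted p = 0.0186), against 900.3 and 800.3 CPM and then 786 and 769 CPM in control embryos. For 51 replication genes the median was 0.14, with 36 above 0.

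**Figure D4:**
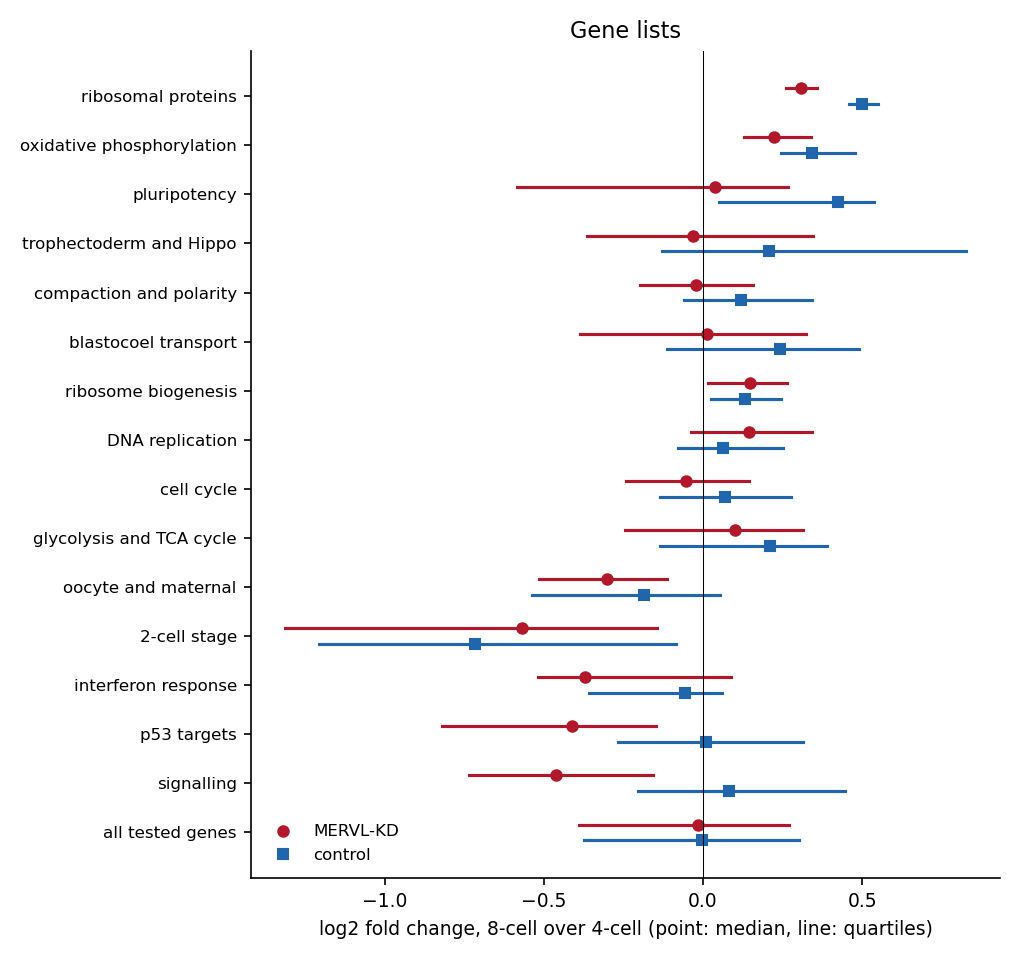
Median log2 fold change from the 4-cell to the 8-cell stage of each gene list in MERVL-KD and in control embryos, as points, with lines from the lower to the upper quartile of the members. The p53 targets and the signalling list lie lower in MERVL-KD (-0.41 and -0.46) than in control embryos (0.01 and 0.08), and pluripotency and ribosomal proteins lie higher in control embryos (0.42 and 0.50).

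Interferon genes had a median of -0.37 over 21 tested, of which 15 lay below 0, against -0.06 in control embryos, with no call by edgeR or DESeq2 and 4 lower at an unadjusted p under 0.05. The MERVL-KD median was nearer 0, between -0.34 and -0.13, when a library was left out. Sterol synthesis (27 tested, median -0.06) and regulators of DNA methylation (20 tested, median 0.00) stood near all genes. Among the latter Zfp57, the protector of imprints, was lower (-0.84, edgeR adjusted p = 0.0293), as it was in control embryos (-0.50). The upstream p53 pathway had no member at an adjusted p under 0.05 among 15 tested (edgeR), with 1 higher and 2 lower at an unadjusted p under 0.05 and 1 lower by DESeq2. Markers of cumulus, granulosa and blood cells were in sum lower at the 8-cell stage in MERVL-KD embryos. The summed level of 16 cumulus and granulosa markers was 57.9 and 62.7 CPM at the 4-cell stage and 40.4 and 39.5 CPM at the 8-cell stage (control 31.1 to 38.1), and that of 11 blood markers 22.9 and 29.7 CPM and then 10.5 and 7.34 CPM (control 4.36 to 7.51). Serpine2, Kitl, Coro1a and Hba-a1 carried most of this change. Coro1a, a coronin of leukocytes, was called lower (-1.52, SE 0.29), and the globin gene Hba-a1 stood at 3.58 and 7.38 CPM and then at 0.883 and 1.80 CPM. Amhr2, on the cumulus and granulosa list, was not low and did not move with the stage. It stood at 24.5 and 19.6 CPM and then at 20.9 and 19.2 CPM in MERVL-KD embryos, and at 20.6 to 24.0 CPM in control embryos. Several others were low, with Ptx3, Fshr, Hbb-bs and Hbb-bt at no more than 4 counts in a MERVL-KD library. Tnfaip6, Foxl2, Nr5a1 and Ptprc held up to 30, 42, 34 and 24 counts, and stromal and oviduct markers summed to 3.30 to 5.27 CPM in all 4 MERVL-KD libraries. The part of other cells in the decreases was not tested.

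Isoleucyl-tRNA synthetase, Iars, was the only tRNA synthetase of 20 that fell. It stood at 46.4 and 45.0 CPM in MERVL-KD 4-cell libraries and at 17.7 and 18.0 CPM in 8-cell libraries, a log2 fold change of -1.35 (SE 0.15, edgeR adjusted p = 0.00321). In control embryos it was at 156 and 151 CPM and then at 125 and 116 CPM (-0.34, SE 0.08), so the MERVL-KD libraries lay below control at both stages and the difference between the changes was -1.01 (SE 0.14, edgeR adjusted p = 0.00444). Leucyl-tRNA synthetase, Lars, was higher (0.90, edgeR adjusted p = 0.0197), from 19.8 and 17.7 CPM to 35.6 and 33.8 CPM, and the median of the 20 was 0.20. Iars lies on the plus strand at chr13:49682100-49734267 (mm10), and its introns hold 2 stretches that pair with the injected oligonucleotides. They are printed as the strand of the transcript, 5′ to 3′, with a base that differs from a full match in capitals.
Iars, chr13:49696141-49696160, full match to MERVL-ASO3: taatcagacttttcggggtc
Iars, chr13:49694355-49694374, 1 mismatch to MERVL-ASO1: attggcttgttgatccCcca
Csnk2a1, chr2:152263922-152263941, full match to MERVL-ASO1: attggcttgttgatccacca
Csnk2a1, chr2:152265495-152265514, 1 mismatch to MERVL-ASO2: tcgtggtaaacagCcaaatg
The mismatches are A17C in Iars and A14C in Csnk2a1, counted from 1 at the 5′ end of the site, with the base that would pair first. Csnk2a1, the catalytic subunit of casein kinase 2 (plus strand, chr2:152226839-152281852), also held a full match to MERVL-ASO3 at chr2:152265747-152265766, all in introns and in the sense of the transcript. Unlike Iars it did not change between the stages beyond its spread, at 36.8 and 35.8 CPM and then at 31.4 and 35.0 CPM in MERVL-KD embryos (-0.12, SE 0.14, edgeR adjusted p = 0.732), but it lay below the control libraries of 157 to 174 CPM throughout.

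Over all tested genes such sites were rare. A site with at most 2 mismatches to a MERVL ASO, in the sense of the gene, was found in 123 of the 19505 genes (0.631%), in 2 of the 132 that fell (1.52%, Apol7b and Iars) and in none of the 41 that rose. Of the 123 genes 29 lay above 0 in MERVL-KD embryos, with a median of -0.28. In control embryos, which did not receive these oligonucleotides, 145 genes with such a site were tested. Of these 10 fell (1.04% of all genes did in control embryos), and the median was -0.53. The difference had a median of 0.05 over 149 genes. Among genes called for the difference, 2 of the 22 above 0 held such a site (9.09%, Arsk and Gm48754). So did 1 of the 58 below 0 (1.72%, Iars), next to 0.7% of all genes tested for it. Genes with an antisense site had medians of -0.11 in MERVL-KD and -0.21 in control embryos. A sequence match describes where an oligonucleotide could pair and not that it did.

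Repeat families had a median change near 0 in MERVL-KD embryos and below 0 in control embryos. Of 757 families tested 2 fell (0.264%) and none rose at least 2-fold (edgeR), with 37 higher and 68 lower at an unadjusted p under 0.05, and DESeq2 called 3 lower and none higher. At the adjusted p alone 3 were higher (0.396%) and 13 lower (1.72%). In control embryos 12 of 751 were higher (1.6%) and 143 lower (19%) at the adjusted p alone, and 8 fell at least 2-fold (1.07%). The median log2 fold change of all families was 0.02 in MERVL-KD and -0.35 in control embryos, and the median difference was 0.32. With library size alone the MERVL-KD median was -0.11 and that of the difference 0.38. For the difference between the groups edgeR called no family at 2-fold, with 189 higher and 13 lower at an unadjusted p under 0.05, and DESeq2 called 3 higher. At the adjusted p alone 17 were higher in edgeR (2.14%) and none lower, and DESeq2 gave 40 higher and 4 lower. The 17 comprised 9 families of SINEs (short interspersed elements), 4 of MaLR, 2 of ERVL and 2 of DNA transposons.

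Among the MERVL elements MT2_Mm followed this pattern, while MERVL-int, which the oligonucleotides target, did not. MERVL-int fell in control embryos by 0.65 (SE 0.07) on the log2 scale and stood in MERVL-KD embryos at the values given above (-0.52, SE 0.17, edgeR adjusted p = 0.16), with no significant difference (0.14, SE 0.28). Its LTR MT2_Mm was at 443 and 436 CPM and then at 526 and 479 CPM in MERVL-KD embryos (0.20, SE 0.10, edgeR adjusted p = 0.332) and fell in control embryos from 1446 and 1286 CPM to 1030 and 1009 CPM (-0.41, SE 0.07). The difference of 0.62 (SE 0.12) passed (edgeR adjusted p = 0.0216). The related MERVL_2A-int behaved alike, with 96.0 to 112 CPM in the 4 MERVL-KD libraries and a fall from 735 and 612 CPM to 411 and 419 CPM in control embryos (difference 0.77).

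Of the 8 classes SINEs had the highest median difference, 0.52, with medians of 0.12 in MERVL-KD and -0.35 in control embryos. The SINE B3A was at 1382 and 1521 CPM and then at 1615 and 1618 CPM in MERVL-KD embryos, against 1628 and 1774 CPM and then 1273 and 1284 CPM in control embryos. MaLR elements, relatives of MERVL that are active in the oocyte, had medians of 0.02 and -0.36, ERVL of 0.07 and -0.37, ERVK of 0.02 and -0.31 and DNA transposons of 0.12 and -0.41. The MERVL-KD medians of these 5 classes turn slightly negative under library size alone. LINE1 had a median of -0.14 over 116 families in MERVL-KD embryos, 90 of them below 0. At the adjusted p 9 were lower, the highest such count of the 8 classes (edgeR), where 1.72% of all families were. In control embryos the LINE1 median was lower, at -0.45 over 114 families, of which 45 were lower at the adjusted p (19% of all families). The median difference was 0.25. The 9 in MERVL-KD embryos were families of the L1MdA, L1MdF, L1MdGf and L1MdN groups. L1MdA_V, for example, went from 63.8 and 60.3 CPM to 36.1 and 33.2 CPM (-0.84, SE 0.13, edgeR adjusted p = 0.0142), and in control embryos from 69.4 and 57.8 CPM to 45.5 and 35.0 CPM (-0.65, SE 0.14). The falls of L1MdA_V did not differ significantly (-0.18, edgeR adjusted p = 0.786).

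Both families that fell 2-fold in MERVL-KD embryos were satellites. SYNREP_MM went from 42.2 and 50.3 CPM to 16.8 and 15.2 CPM (-1.53, SE 0.16, edgeR adjusted p = 0.00307), though the call was lost in a fit of all 12 RNA libraries (adjusted p = 0.284). The major satellite GSAT_MM, which makes up the pericentromeric repeats, went from 36.1 and 32.2 CPM to 16.9 and 14.7 CPM (-1.11, SE 0.16, edgeR adjusted p = 0.0103), with control libraries between 17.3 and 23.3 CPM. The difference from control passed for neither in edgeR (adjusted p = 0.247 and 0.0673), and DESeq2 gave 2 of the 5 satellite families an adjusted p under 0.05 for a lower difference. MMSAT4, another satellite, went from 136 and 95.4 CPM to 195 and 173 CPM (0.67, SE 0.15) and did not pass (edgeR adjusted p = 0.0524). Higher at the adjusted p alone were ETnERV3-int (0.61, SE 0.11), RLTR1B-int (0.50, SE 0.11) and the row for large subunit ribosomal RNA, which varied from 74313 to 103059 CPM between the MERVL-KD 8-cell libraries. The kit depletes ribosomal RNA after reverse transcription, so this row also carries what depletion left behind, and its part was not tested.

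**Figure D5:**
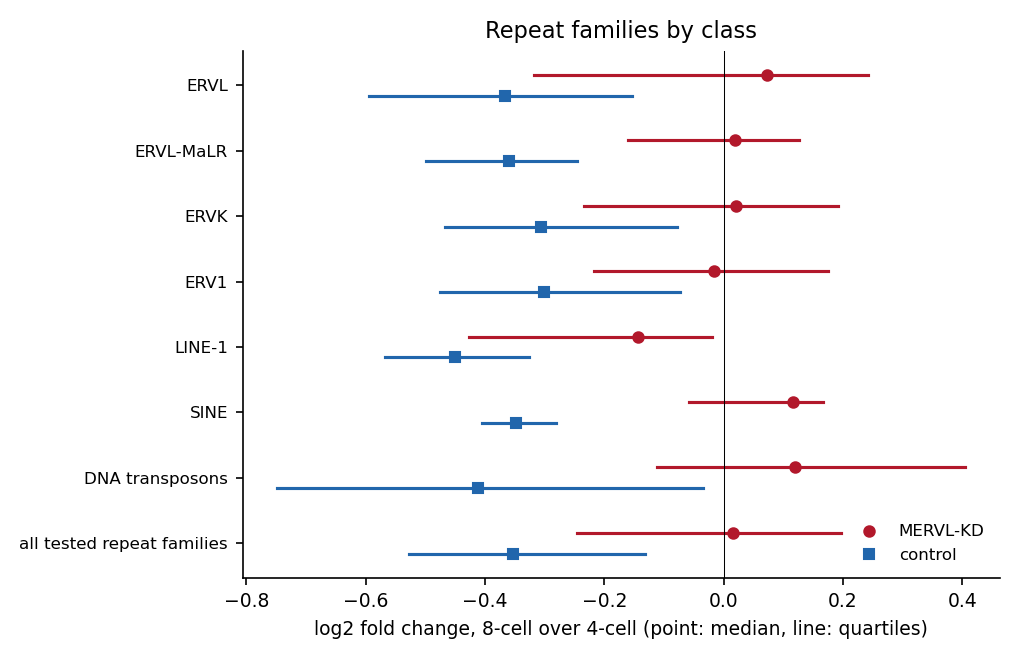
Median log2 fold change from the 4-cell to the 8-cell stage of the tested families of each repeat class in MERVL-KD and in control embryos (points), with lines from the lower to the upper quartile. The control medians lie between -0.45 and -0.30 for the LTR, LINE1, SINE and DNA classes, and the MERVL-KD medians between -0.14 and 0.12.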

How the data were processed

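Total RNA from pools of 30 embryos was sequenced with the SMART-Seq Stranded kit. The authors aligned reads with STAR 2.5.3a to GRCm38/mm10, counted uniquely aligned reads per GENCODE gene and per RepeatMasker family by featureCounts, so reads that match several copies are missing and repeat levels are understated. The deposited values used here are raw counts, and no spike-in was available, so levels are relative to the library. In every library about 7 in 10 counts between 1 and 50 were even, as when both reads of a pair count. ATAC-seq samples were not analysed here. All 12 RNA tables were read, and no column was left unused.

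Genes and repeats were fitted together with edgeR 4.0.16 (R 4.3.3; filterByExpr, TMM, robust quasi-likelihood test, Benjamini-Hochberg over all rows), in the 4 libraries of a group for each stage comparison and in the 8 libraries for the difference between groups. A call needed an adjusted p under 0.05 and at least a 2-fold change. CPM are from the 8-library scaling. The 2 libraries of a group are biological replicates by the methods. The test was also run on simulated counts, and the outcome is not given here. Alternatives were DESeq2 1.42.0, other scalings, filters, sample sets, a replicate block and each library left out.

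The members and lists were chosen with earlier results of these data known. Genes are named by rule: the 8 with the smallest p in each direction and the 6 for the difference (mean of at least 5 CPM, libraries not overlapping, no predicted or histone genes), the 3 called list members with the largest change, a fixed set of lineage and p53 genes, and repeats by smallest p. Other list members named passed an adjusted p. A gene that the rule names is not reported here. Histone and homeobox groups were chosen after their values were seen. Repeat classes follow the class prefix in the deposited names. Promoters were not printed, because too few of the called genes had an entry.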

Additional observations from a re-analysis of the deposited data

Results flagged for a closer look

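The following changes from the 4-cell to the 8-cell stage differed between MERVL-KD and control embryos by the interaction test over 8 libraries (edgeR, adjusted p under 0.05 and at least 2-fold), and each value is the log2 fold change in MERVL-KD minus that in control embryos. With 2 libraries a group, no single library was tested as an outlier. Above 0 were Parp8 (1.50), Hbp1 (1.28), Bzw2 (1.15), Anapc10 (1.10), Bbx (1.09) and Socs7 (1.02). In all 6 the MERVL-KD libraries lay below the control libraries at both stages.

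Below 0 were structural and epithelial genes, namely Perp (-2.55), Krt8 (-2.32), Spint1 (-1.58), Ahnak (-1.58), Jup (-1.15) and Plec (-1.07). Regulators of the cell cycle and p53 targets were Cdkn1c (-2.59), Ccnd2 (-2.42), Ccne2 (-1.32) and Gtse1 (-1.05). Signalling genes were Vegfa (-1.96), Lif (-1.49) and Bmp4 (-6.73), the last a fitted value that depends on the prior count because its MERVL-KD 8-cell libraries held 2 and 0 counts. The others were Shisa2 (-4.76), Sting1 (-4.26), Cpm (-2.24), Ier5l (-1.75), Hk2 (-1.22) and Iars (-1.01).

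Not all of these held when a library was left out or the fit was changed. The differences of Sting1, Shisa2, Ahnak and Plec were not followed over the alternatives. Over 19 alternatives the call of the difference was kept in each for Hbp1, Cpm, Spint1, Perp, Krt8, Ier5l and Cdkn1c. It was lost in 1 for Anapc10 and Bzw2. For Iars it was lost in 6, each time because the difference fell short of 2-fold and with an adjusted p of at most 0.0172. It was lost most often for Ccnd2 and Vegfa (9 each) and Hk2 (8).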

How the results depend on the processing

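The count of genes called between the stages in MERVL-KD embryos, 173, became 303 by DESeq2, 293 with 8 and 394 with 12 libraries in the fit, 511 with every row of at least 1 count, 358 without the fold threshold and 334 to 555 with a library left out (379 without replicate 1 and 334 without replicate 2 of the 4-cell stage, 555 without replicate 1 and 351 without replicate 2 of the 8-cell stage), of which 137 to 155 were among the 173. Decreases outnumbered increases in each of these. Repeat families, 2, became 1 with 12 libraries, 16 without the fold threshold and 3 to 6 with a library left out. The control count of 323 became 1916 without the fold threshold and 341 to 494 with a library left out, the highest without replicate 1 of the 4-cell stage. The count for the difference, 80, became 189 by DESeq2, 283 with every row of at least 1 count, 135 without the fold threshold and 55 to 170 with a library left out (170 without MERVL-KD 4-cell replicate 1, 137 without MERVL-KD 8-cell replicate 2). No result changed its sign past the threshold. Of the values for named genes and repeats under the alternatives, 1709 kept direction and call, 100 lost the call, 21 gained it and 11 untested values moved beyond their spread. Causes were not tested.

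With the replicate number as a block 359 genes were called in MERVL-KD embryos. The numbers share no stated batch, the deviations of same-numbered libraries correlated at 0.06 in MERVL-KD and 0.00 in control embryos over 8058 genes, and only 2 pairs exist, so they were not read as pairs. The block cost Btg2 its call (adjusted p = 0.0947) and Vegfa that of the difference (adjusted p = 0.06).

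With 2 libraries a group, genes of a few CPM such as Sox2, Cdx2 and Duxf3 allow no statement on a change. Medians of lists within about 0.1 of 0 depend on scaling, and scaling by library size alone turned that of pluripotency, glycolysis, heat shock, casein kinase 2 and transport genes. Uniquely aligned reads leave young repeats undercounted.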

Other observations

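Some groups of genes were noticed after their values were seen, and are described without a test. Histone genes lay mostly above 0 in both groups. In MERVL-KD embryos 47 of 53 tested lay above 0 with a median log2 fold change of 0.78 (0.73 in control embryos), 19 passed the adjusted p and 8 were called. H2ac8 stood at 7.43 and 9.84 CPM in the 4-cell and at 18.5 and 29.6 CPM in the 8-cell MERVL-KD libraries, and H2bc7 at 11.9 and 13.5 CPM and then at 25.2 and 35.3 CPM. Replication-dependent histone transcripts have no poly(A) tail and are captured here because the libraries were made from total RNA with random primers. Their copies are nearly identical, and reads that match several copies are missing from the counts.

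Homeobox genes had medians of opposite sign in the groups. Each fit had its own expression filter, so the medians cover partly different genes and are not a like-for-like contrast. Of 112 tested in MERVL-KD embryos 80 lay below 0, with a median of -0.33. In control embryos 96 were tested, of which 57 lay above 0, with a median of 0.22. The median difference was -0.55 over 117 genes. With a library left out the MERVL-KD median lay between -0.54 and -0.21. Called were 8 lower and 1 higher (DESeq2 10 and 3), where 0.677% and 0.21% of all genes were. The 8 lower were Six4, Dlx3, Irx3, Pou4f2, Msx1, Lbx1, Isl1 and Barhl2, developmental regulators of later tissues. The summed level of all 197 homeobox genes in the tables was 997 and 1036 CPM and then 1012 and 997 CPM.

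Gene models that lie in satellite sequence fell, as did the satellite families SYNREP_MM and GSAT_MM but not MMSAT4. Gm10800 stood at 358 and 435 CPM in the MERVL-KD 4-cell libraries and at 102 and 122 CPM in the 8-cell libraries, and Gm10718, Gm10717, Gm10722 and Gm21738 were lower too. Their reads come from near-identical arrays and cannot be given to a locus.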
